A study of Dugesia japonica with 157 samples.

Results

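The ventral side of a planarian was compared with its body interior, using serial tissue sections cut from dorsal to ventral. Dugesia japonica is a freshwater flatworm, and the sectioned material was whole animals of strain AF with no treatment labelled. The study sequenced polyadenylated RNA from 157 sections, in 3 series of 78 (anterior to posterior), 28 (dorsal to ventral) and 51 (right to left). In the dorsal-ventral series, section 1 is the dorsal end and section 28 the ventral end. Sections 19 to 26 were taken as ventral and sections 10 to 18 as interior, which gave 8 and 9 labelled sections. Sections with a total under 20% of the median total of the 28 were dropped, and 16 sections remained, namely 8 ventral ones and 8 interior ones (sections 10 to 17). Interior section 18 was among the 7 dropped, with ventral end sections 27 and 28 and dorsal sections 1, 2, 3 and 6. The borders come from section numbers and not from anatomy, and the labels name no replicate animals.

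A planarian is flattened from back to belly. Its ventral surface carries the ciliated epidermis on which the animal glides, and beneath it lie the ventral nerve cords and layers of body wall muscle. The interior holds the branched gut, the pharynx within its pouch, and the parenchyma, the mesenchyme-like tissue in which the dividing stem cells called neoblasts lie. Signalling by BMP, a secreted growth factor made on the dorsal side, is known to keep dorsal tissue distinct from ventral tissue. The tables identify transcripts by code alone and pair none with a gene name, so the place labels could not be checked against markers of epidermis, nerve, muscle, gut or neoblasts. A gene below means 1 row of the table, and identifiers are printed as deposited.

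The ventral sections were sequenced less deeply than the interior ones. Totals of the kept ventral sections ranged between 648215 and 5636890 counts (median 1874280), against 1643660 to 26807300 counts (median 14600700) in the kept interior sections. Interior section 10 was the only one of them no deeper than the deepest ventral section, number 23. Depth and place therefore move together, and for most sections they cannot be told apart. Fewer cells of a type and less RNA per cell cannot be told apart either, since each library is bulk RNA of a section. Among 120 pairs of kept sections the closest, interior sections 13 and 15, differed by a chi-square of 2.18 per degree of freedom at equal depth, so no library was found to be a copy of another.

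Many genes differed between the ventral side and the interior, in both directions and in nearly equal number. Of 17832 genes tested, 2522 were called at an adjusted p under 0.05 (edgeR's quasi-likelihood F-test with Benjamini-Hochberg adjustment). Of these, 1254 genes, or 7.03% of those tested, were higher ventrally, and 1268 genes, or 7.11%, were higher in the interior. The median log2 fold change (ventral over interior) over all genes tested was -0.10. A gene was tested when it had at least 5 counts in at least 3 of the 16 sections, and 7734 of the 25566 rows did not reach this, including 5061 with no count in any of these sections.

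The balance between the directions depended on the scaling. When every section was thinned to 648215 counts, the lowest kept total, 1401 of 10993 genes tested (12.7%) were higher ventrally and 870 (7.91%) in the interior. The split was 1561 against 1027 with DESeq2 size factors. Library totals alone gave 1937 against 736 and moved the median log2 fold change of all genes to 0.32. The limma-trend test leaned the other way, with 744 against 2385 genes and a median of -0.77.

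The ventral genes differed by a moderate and rather uniform amount. Their median log2 fold change was 2.15, and the middle part of the list, between its quartiles, lay between 1.80 and 2.50. More than a 2-fold difference was fitted for 1241 of the 1254, more than 4-fold for 769 and more than 8-fold for 145. Their median level was 35.8 CPM (counts scaled to a common depth with TMM factors) in ventral sections, against 8.71 CPM in interior sections. Levels of the groups did not overlap for 56 of them, and over all genes tested the ventral sections were all above the interior ones for 58 (0.325%). For most ventral calls the averages differed while single sections of the groups overlapped. Only 10 had no count in any interior section.

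The interior genes showed a wider span and a sharper separation. Their median log2 fold change was -2.25, with quartiles at -3.37 and -1.44. In all 8 ventral sections 130 of them had no count. With each of these set at its bound, computed from a floor of 3 counts over the ventral sections, the median was -2.20, and 1196 of the 1268 genes were more than 2-fold lower ventrally, 697 more than 4-fold and 337 more than 8-fold. The median level was 9.97 CPM in ventral sections, against 43.3 CPM in interior sections. The groups did not overlap for 612 of these genes, and over all genes tested all interior sections were above the ventral ones for 693 (3.89%).

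The genes called higher ventrally took a large share of all counts in the sections with the lowest totals. In the 8 kept ventral sections they took between 8.34% and 47.3% of the counts (median 11.9%), against 2.21% to 4.84% (median 2.51%) in the 8 kept interior sections. Ventral section 26, the shallowest kept section of either group, held the 47.3%, and the next highest ventral section, number 22, held 17.2%. The 7 sections dropped for a low total, which entered no fit, had shares between 35.5% and 46.3%, whether dorsal, interior or ventral. Interior section 18 had 44.9% of its 295459 counts in these genes, and dorsal section 6 had 46.3%. The 5 kept dorsal sections held between 3.03% and 21.4%, the highest being section 4, the shallowest of them with 623214 counts.

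In summed counts these ventral genes varied less along the series than the section totals did. Section totals ranged 97.4-fold over the 28 sections, whereas the counts in the 1254 genes ranged 7.53-fold, between 79474 in section 10 and 598425 in section 13. Counts in the 1268 interior genes ranged 473.5-fold, between 17207 in section 28 and 8147600 in section 13. No single transcript made up the share in the shallow sections. In section 18 the most abundant of the 1254 genes took 1.31% of the counts, and in section 26 it took 1.19%. A small part of the list still held much of its counts. In section 18, 47 of the 1254 genes held as many of these counts as all the others together. The number was 57 in section 26 and 85 in section 13. The part of the section total in these calls was examined only through the fits given next.

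**Figure D1:**
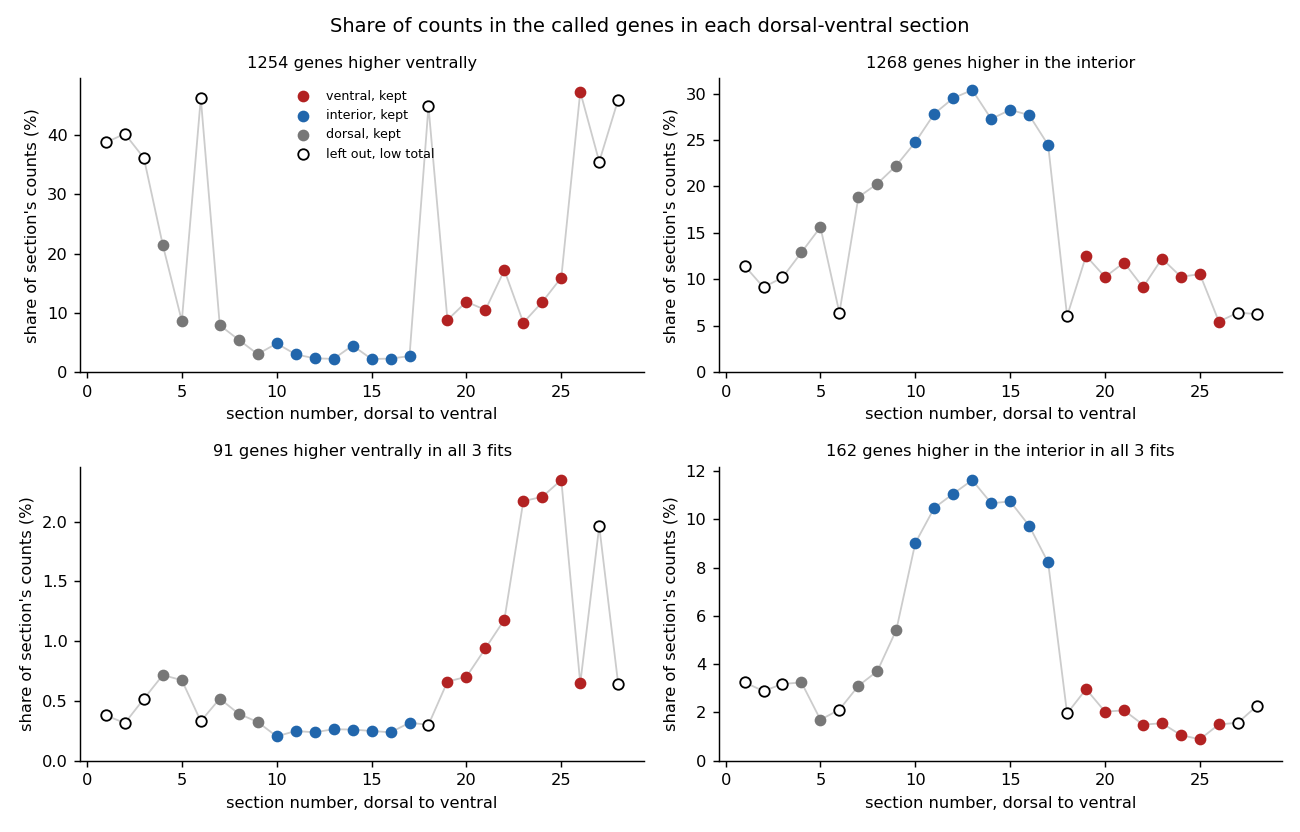
Share of each section's counts (percent, vertical axes, each on its own scale) in 4 gene lists, by section number from dorsal to ventral. Filled points are kept ventral (red), interior (blue) and dorsal (grey) sections, and open points are the 7 sections dropped for a low total. The 1254 genes higher ventrally reach 35.5% to 46.3% in every dropped section, while the 91 genes called in all 3 fits peak at 2.35% in section 25.

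Adding the log2 section total to the model removed most calls. With it 113 genes (0.634%) were called higher ventrally and 172 (0.965%) higher in the interior, of the same 17832. Of the 1254 ventral genes 95 were called in the same direction, and for 400 the fitted sign turned. Of the 1268 interior genes 172 were called in the same direction and 17 turned sign. Thinning kept more of them, with 1104 ventral genes and 812 interior genes called in the same direction, while 79 and 224 were too low to be tested after thinning. No called gene was called with the opposite sign in either fit. The median log2 fold change of all genes was 0.08 with the section total and 0.02 after thinning.

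Genes called in all 3 fits (as deposited, thinned, and with the section total) numbered 91 higher ventrally, 0.51% of the genes tested, and 162 higher in the interior, 0.908%. The model with the section total rests on few sections, because section 10 alone links the depths of the groups. Without section 10 the counts were 0 higher ventrally and 1 higher in the interior. Ventral genes numbered 8 without ventral section 23, 59 without section 25 and 58 without interior section 14, against 143 without section 19 and 154 without section 26. Interior genes numbered 304 without section 26. With library totals alone 193 ventral genes were called in all 3 fits, and they included all 91.

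**Figure D2:**
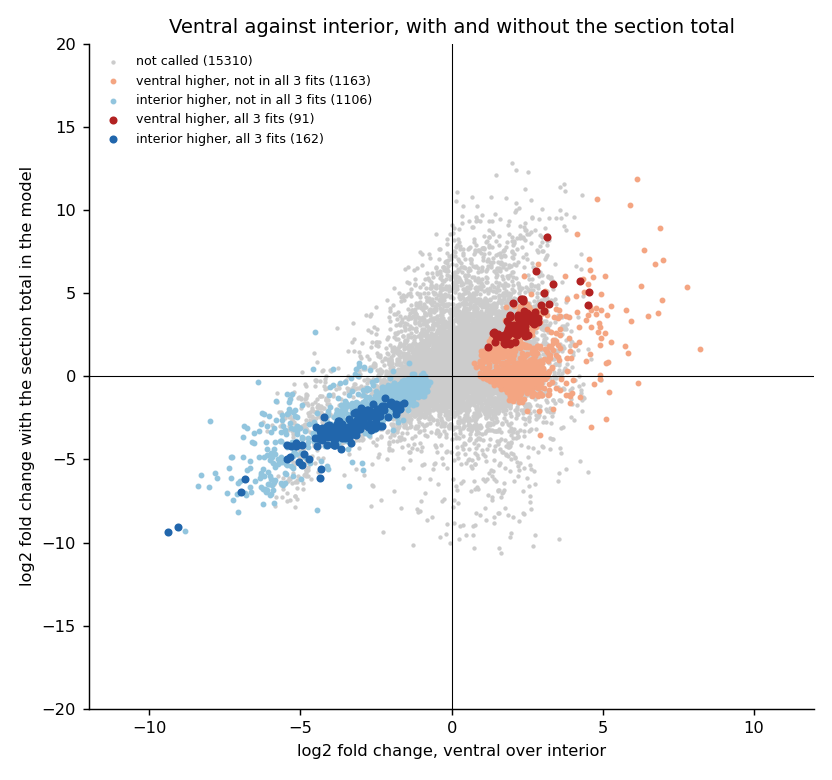
Log2 fold change (ventral over interior) as deposited on the horizontal axis and with the log2 section total in the model on the vertical axis, 1 point for each of the 17832 genes. The 91 dark red and 162 dark blue points are genes called in all 3 fits, the 1163 and 1106 pale points are called genes that were not, and grey points were not called. The fitted sign turns for 400 genes higher ventrally, seen as pale red points under 0 on the vertical axis, whereas the dark points keep their side.

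The 91 ventral genes had their highest summed share of counts in sections 23 to 25. Their summed share of counts was 0.662% in section 19, 0.702% in section 20, 0.940% in section 21, 1.18% in section 22, 2.17% in section 23, 2.21% in section 24, 2.35% in section 25 and 0.647% in section 26. The 8 interior sections held between 0.204% and 0.318%, so the groups did not overlap in summed share, which the choice of genes makes likely. With each gene given equal weight they did overlap. Section 26 then had 2.00%, inside the interior range of 0.963% to 2.05%. Sections 23, 24 and 25 stood out, and section 26, beyond them, was the lowest of the ventral sections. All 8 ventral sections entered the choice of the genes, which numbered 8 without section 23 and 154 without section 26. How far this peak and dip follow from that choice was not tested. The highest level among the 21 kept sections fell in section 25 for 49 of the 91 genes, in section 23 for 27 and in section 24 for 12, and in no section outside the ventral ones.

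Sections that entered no fit give a reading of the same genes. Section 27, with 413131 counts, held 1.96% in the 91 genes, and 74 of them were above their highest interior level there and 3 below their lowest. Section 28, with 275287 counts, held 0.641%, with 21 genes above that level, 49 below their lowest interior level and 36 at 0. Interior section 18, as shallow as these, held 0.301%, with 7 genes above their highest kept interior level, 62 below their lowest and 48 at 0. Its summed share lay within the range of the kept interior sections. In dropped dorsal sections 1, 2, 3 and 6, also of low total, 45 to 67 of the 91 genes were below their lowest interior level. No kept interior section can have such a gene by definition, so this count cannot say which group section 18 is nearer to.

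The 5 kept dorsal sections held between 0.324% and 0.717% of their counts in these 91 genes. Sections 4 and 5, at 0.717% and 0.674%, lay inside the ventral range, and sections 7, 8 and 9 lay below it and above every kept interior section. With each gene given equal weight, sections 7, 8 and 9 had 3.46%, 2.56% and 2.04%, inside the ventral range of 2.00% to 14.5%. Section 9 was then below interior section 17, which had 2.05%. The mean dorsal level lay between the means of the ventral and interior sections for 72 genes. It was below both for 16 genes and above both for 3. Ventral section 23 held its 2.17% at 5636890 counts, against 0.520% in dorsal section 7, which is close to it in depth with 5088532 counts. Section 23 entered the choice of the 91 genes and section 7 did not. The part of that choice in the gap was not tested. The 4 dropped dorsal sections held between 0.316% and 0.518%.

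The differences of the 91 genes ranged between 1.21 and 4.53 on the log2 scale, with a median of 2.20. All were more than 2-fold higher ventrally, 63 more than 4-fold and 8 more than 8-fold. Their median level was 70.8 CPM in ventral sections, against 14.6 CPM in interior sections. No overlap between the groups was seen for 25 of them, where the ventral sections were all above the interior ones for 58 (0.325%) of all genes tested. The choice of genes by the same contrast favours this. Section 26 was most often out of line, with 22 of the 91 genes above their highest interior level and 21 below their lowest.

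The 162 interior genes formed a broad hill centred on sections 11 to 15. Their summed share was between 0.890% and 2.97% in the 8 ventral sections (median 1.53%), against 8.21% to 11.6% in the 8 interior sections (median 10.6%). Section 13 was the highest and section 17, next to the dropped section 18, the lowest of the interior. Interior section 10, whose 1643662 counts lie within the range of the ventral totals, held 9.02%. It entered the choice of these genes, and without it 1 interior gene was called in all 3 fits. Its share is therefore no separate reading of depth. The highest level among the 21 kept sections fell in section 13 for 73 genes, in section 12 for 27, in section 11 for 20, and in dorsal section 9 for 5.

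On the dorsal flank the share of the 162 genes was 3.10% in section 7, 3.71% in section 8 and 5.42% in section 9, next to the interior. Section 9 had 10603361 counts, and 104 of the 162 genes were below their lowest interior level there. The kept interior sections entered the choice of these genes and section 9 did not. The dorsal mean lay between the means of the ventral and interior sections for 160 genes. Section 18 held 1.96%, inside the range of the ventral sections, and 159 genes were below their lowest interior level in it. That section carries the interior label by number, so its values go against its group for these genes, and its total is the second lowest of the 28. Whether place or depth sets its values cannot be told apart.

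The fold changes of the 162 genes were larger than those of the ventral list. The median log2 fold change was -3.25, with a range between -9.38 and -1.58, and 149 were more than 4-fold and 100 more than 8-fold lower ventrally. Their median level was 26.3 CPM in ventral sections, against 202 CPM in interior sections. In 159 of them the groups did not overlap, where all interior sections were above the ventral ones for 693 (3.89%) of all genes tested. The choice of genes by the same contrast makes this likely. No count in any ventral section was found for 2 of the 162.

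**Figure D3:**
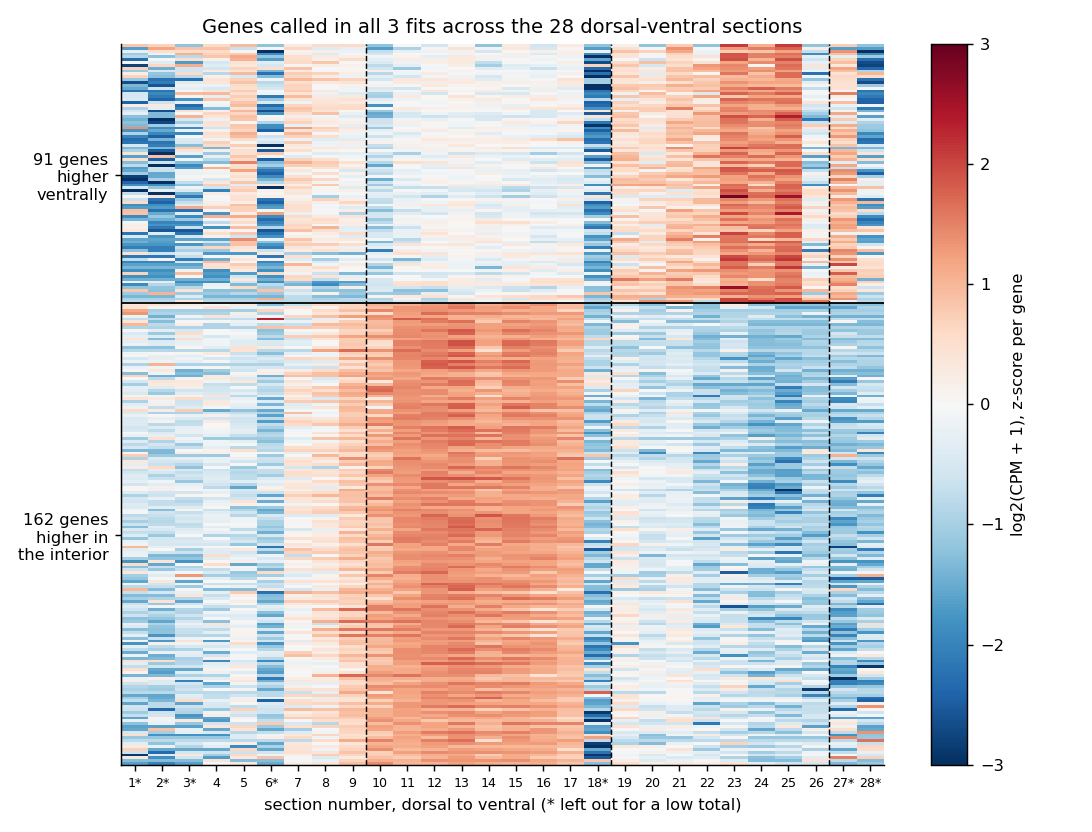
Level of the 91 ventral and 162 interior genes called in all 3 fits (rows) in the 28 sections from dorsal to ventral (columns), as the z-score per gene of log2(CPM + 1). Dashed lines mark sections 10 to 18 and 19 to 26, and asterisks mark the 7 sections dropped for a low total. The ventral genes are reddest in sections 23 to 25 and in section 27, and the interior genes in sections 10 to 17, but not in section 18.

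With interior section 18 kept, fewer genes were called, 331 of 17877 (1.85%) higher ventrally and 518 (2.9%) higher in the interior. The adjusted p stayed under 0.05, in the same direction, for 85 of the 91 ventral genes and 159 of the 162 interior genes. With the section total also in the model, 385 genes (2.15%) were called higher ventrally and 177 (0.99%) higher in the interior, and these held 88 of the 91 and 104 of the 162.

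The sections that entered no fit were also set against each other at equal depth. Sections 27 and 28 were pooled and thinned to the 295459 counts of section 18, and genes with at least 5 counts over both libraries were read. Of 82 such genes among the 91, 78 (95.1%) were higher in the pooled ventral end sections and 4 lower, with a median log2 ratio of 3.00 (1 count added to each). For all 7948 genes with enough counts 54.2% were higher there and the median was 0.32. The 1109 readable genes of the larger ventral list did not stand out, with 52.8% higher and a median of 0.10. The 129 readable interior genes called in all 3 fits were evenly divided, 60 higher and 65 lower in the ventral end sections. Each side is 1 library or a pool of 1 kind, so these ratios have no replicate check. Before thinning, section 27 brought 8106 counts in the 91 genes to the pool and section 28 brought 1764. The ratio of the 91 genes therefore rests mostly on section 27. In section 18, 48 of the 91 genes were at 0, and such genes could reach the count minimum only through the pool. For them the ratio could only be positive, and its size depends on the 1 count added. The 95.1% and the median of 3.00 are therefore partly set by the count minimum.

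**Figure D4:**
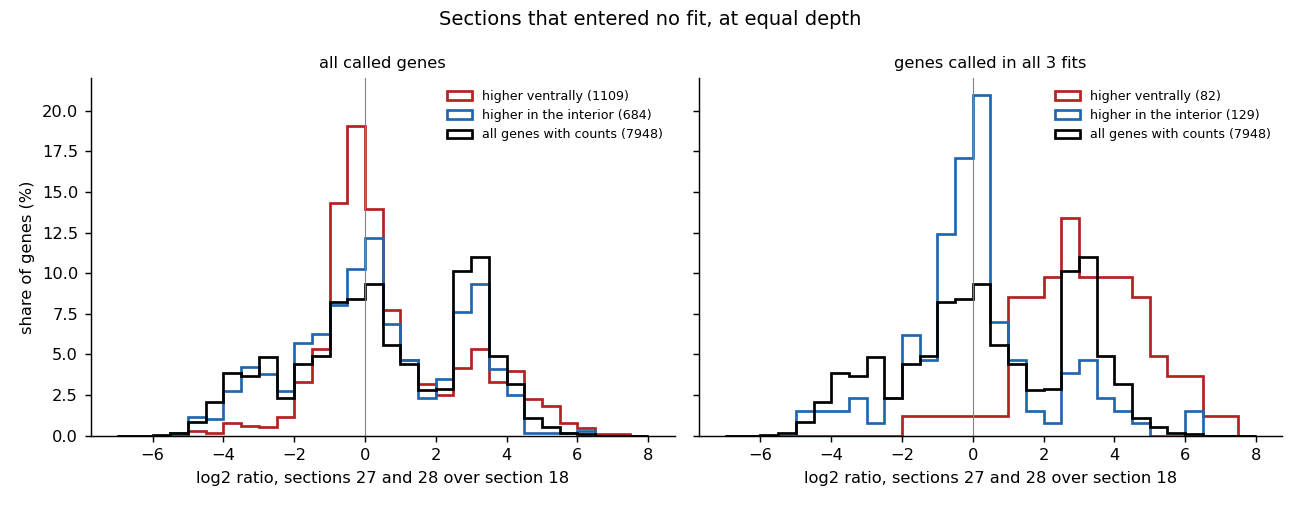
Distribution of log2 ratios, ventral end sections 27 and 28 over interior section 18, all thinned to 295459 counts. The horizontal axis is the ratio and the vertical axis the share of genes in percent, for called genes (left) and genes called in all 3 fits (right), with all 7948 readable genes in black. The 82 ventral genes of the right panel centre on 3.00, mostly through section 27, while the 1109 of the left panel centre on 0.10. Genes at 0 in section 18 can be read only when the ratio is positive, which partly sets the 3.00.

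A pair of identifiers per direction shows these patterns section by section. They are those with the largest fold changes among genes called in all 3 fits, with at least 10 CPM in the higher group and 1 sign when odd and even sections were fitted apart. All 91 ventral genes and 160 of the 162 interior genes met these conditions. What these transcripts encode is not given in the files.

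DjGI017191_001 was counted in every ventral section. It had between 20.4 and 85.9 CPM in the 8 ventral sections (median 38.0), against 0 to 4.31 CPM in the 8 interior sections (median 1.99). Section 24 was the highest and section 19, nearest the interior, the lowest of the ventral ones, and the groups did not overlap. The means were 41.8 ± 21.0 CPM ventrally and 1.83 ± 1.46 CPM in the interior (SD, n = 8 each). The log2 fold change was 4.53 ± 0.69 (SE), with an adjusted p of 0.000126 by edgeR's quasi-likelihood test, 9.67e-06 after thinning and 0.0279 with the section total. On a scaling over all 28 sections, the kept dorsal sections averaged 0.314 ± 0.703 CPM (SD, n = 5), while dropped sections 1, 3 and 6 had 24.0, 11.7 and 25.9 CPM, from 9 to 18 counts each. Ventral end sections 27 and 28 had 19.6 and 10.6 CPM on that scaling.

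DjGI011591_001 was as strong on average but less even. It had between 0 and 56.5 CPM in the ventral sections (median 24.3), against 0 to 3.14 CPM in the interior sections (median 0.816). Section 24 was again the highest, and section 22 had no count, so the groups overlapped. It was counted 587 times in 7 of the 8 ventral sections, against 110 times in 6 of the 8 interior sections. The means were 25.2 ± 19.5 CPM ventrally and 1.00 ± 1.01 CPM in the interior (SD, n = 8 each), a log2 fold change of 4.53 ± 0.81 (SE) with an adjusted p of 0.000665 by edgeR. The adjusted p was 0.0449 with the section total. All 5 kept dorsal sections were at 0, and ventral end sections 27 and 28 had 1 count and none.

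DjGI019005_001 was counted in all 8 interior sections and in no ventral one. It had 0 counts in the ventral sections, against 3.42 to 17.4 CPM (median 10.9) and 1144 counts in the interior sections. Against a floor of 3 counts over the ventral sections it was at least 83.1-fold lower ventrally, with an adjusted p of 2.24e-05 by edgeR. The adjusted p was 0.000139 after thinning and 0.000877 with the section total. Among kept dorsal sections only 8 and 9, those next to the interior, had it, at 4.77 and 11.3 CPM on the scaling over 28 sections. Section 28 at the ventral end, which entered no fit, held 13 counts, so the transcript was not absent from all sections beyond the interior.

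DjGI006409_001 was close to the same pattern. It had 2 counts in the ventral sections, both in section 26 (2.08 CPM), against 5.02 to 24.4 CPM (median 15.9) and 1685 counts in the interior sections. The pooled level was 183 times higher in the interior, with a 95% exact Poisson interval on the ventral count of 50.8 to 1515 that covers counting error only. The means were 0.260 ± 0.735 CPM ventrally and 16.0 ± 5.60 CPM in the interior (SD, n = 8 each), with an adjusted p of 9.99e-06 by edgeR and 0.00531 with the section total. Kept dorsal sections averaged 3.28 ± 2.26 CPM (n = 5), and dropped dorsal section 1 held 13 counts.

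**Figure D5:**
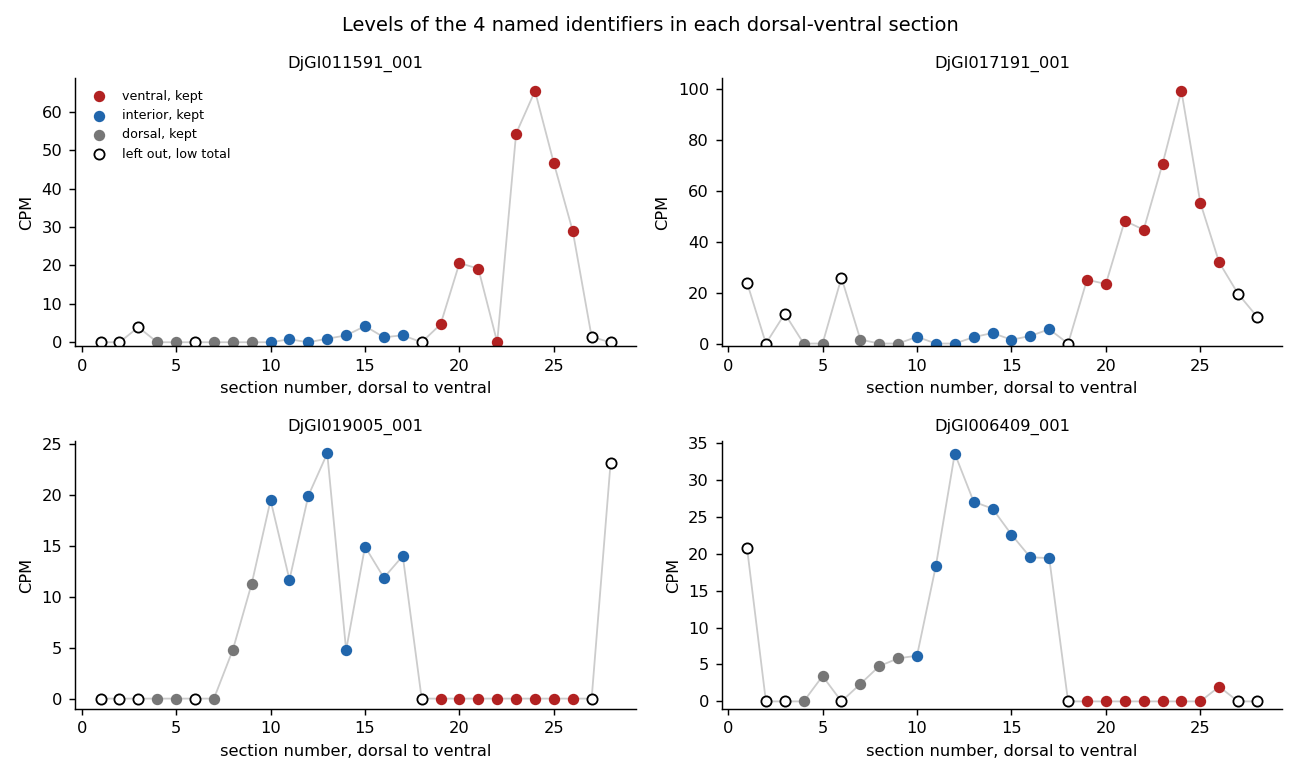
CPM of the 4 named identifiers in each dorsal-ventral section (vertical axes, each on its own scale, scaled over all 28 sections), with kept ventral sections in red, interior in blue, dorsal in grey and dropped sections open. The upper pair is highest in section 24. The lower pair is confined to sections 8 to 17 and 5 to 17 among kept sections, apart from 2 counts of DjGI006409_001 in section 26, and each has 1 high dropped section at an end of the series.

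Within the ventral side, no gene passed the test for a slope across sections 19 to 26. Of 13447 genes tested with edgeR's quasi-likelihood test, 0 were called, 1103 had an unadjusted p under 0.05, and the smallest adjusted p was 0.0512. With thinned counts the result was also 0, with the section total 2 rose and 21 fell towards the ventral end, and limma-trend called 0 and 20. Section 26 decided this count. Without it 112 of 13026 genes were called, 44 (0.338%) rising and 68 (0.522%) falling towards the ventral end, with median slopes of 0.59 and -0.64 log2 units per section. Of the 44 rising genes 31 were among the 1254 ventral genes and 9 among the 91. Of the 68 falling genes 38 were among the 1268 interior genes and 21 among the 162. These lists were chosen with the same ventral sections, and the part of that choice in these counts was not tested.

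The fitted slopes of the lists leaned the same way with all 8 sections. A positive slope towards the ventral end was fitted for 89.0% of the 91 genes and 88.1% of the 1245 readable ventral genes, against 8.90% of the 146 and 23.6% of the 967 readable interior genes. Over all genes tested the share was 52.0%. The 2 ventral identifiers had slopes of 0.40 ± 0.23 (DjGI011591_001) and 0.20 ± 0.15 (DjGI017191_001) log2 units per section (SE), with adjusted p of 0.708 and 0.786 by edgeR, so neither passed.

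Fewer genes were detected ventrally at equal depth. With every section thinned to 648215 counts, ventral sections had 11803 ± 1229 genes with a count and interior sections 13231 ± 503 (SD, n = 8 each). The difference of -1427 genes had p = 0.0107 in a two-sided exact permutation test over sections, adjusted to 0.0214 over 2 such tests. It did not pass when 2 or more counts were required, with -348 genes and an exact p of 0.356, and it turned to 315 more genes ventrally, at an exact p of 0.162, when sections were thinned further, to 64822 counts. The 10 most abundant genes took 28.4 ± 3.70% of counts in ventral sections and 25.6 ± 1.37% in interior sections (SD, n = 8 each), and the exact permutation p of 0.0706 did not pass. Without section 26 it did, with a difference of 3.73 percentage points and an exact permutation p of 0.00264. Of the 10 most abundant genes by group mean, 8 were shared, and 1 of each 10 was called, higher in the interior.

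The ventral sections were less like each other than the interior ones. At equal depth the correlation of log2 levels across genes, centred per gene, averaged 0.069 over the 28 pairs of ventral sections, against 0.317 over the 28 pairs of interior sections, and -0.267 over the 64 mixed pairs. Ventral section 23, the deepest ventral one, had a mean correlation of -0.030 with the other ventral sections and -0.097 with the interior ones. Interior section 10 had 0.137 with the other interior sections and -0.171 with the ventral ones. Centring each gene lowers the coefficients as a set, so a value under 0 does not by itself mean opposite levels. The coefficients run over genes within pairs of sections, and genes are not independent replicates.

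Called rows that share the first part of their identifier mostly had 1 direction. Rows under a first part with at least 2 tested rows were called about as often as others, 13.7% of 5930 against 14.4% of 11902. Of 2057 first parts with at least 2 tested rows, 243 had at least 2 called rows. All called rows were higher ventrally for 148 of these and higher in the interior for 89, and both directions occurred for 6. The 91 ventral genes fell under 87 first parts and the 162 interior genes under 136, with 13 first parts holding 39 of the interior rows. What a shared first part means is not given in the sources used here, and if such rows are near-identical copies, reads could have been divided among them.

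The other body axes, cut into other sections, place the same genes further. In the right-left series, 37 sections were kept (8 right, 15 middle and 14 left), and 35 of 16463 genes (0.213%) were higher at the sides and 128 (0.778%) in the middle. Of the 162 interior genes 0 were higher at the sides and 7 in the middle (4.32%), with a median log2 fold change (sides over middle) of -0.88, against -0.12 over all genes. With the section total in the model the median was -0.37, against 0.01 over all genes, and 1 was called higher in the middle, where 104 (0.632%) of all genes were, and 0 at the sides, where 41 (0.249%) were. Of the 91 ventral genes 3 were higher at the sides (3.30%) and 0 in the middle, with a median of 0.31. Of the larger lists 8 of 1109 ventral genes were higher at the sides and 3 in the middle, against 0 and 31 of 1243 interior genes. With the section total these counts were 4 and 5 for the ventral genes, whose median turned to -0.09 from 0.18 without it, against 1 and 13 for the interior genes.

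Along the length of the animal, with 69 kept sections, the lists were set against the same background. The anterior part had 19 kept sections and lacked the 7 columns numbered foremost, so the head end is largely missing from it. Middle sections were higher than the ends for 183 of 13781 genes (1.33%) and lower for 36 (0.261%), and anterior sections were higher than posterior ones for 238 (1.73%) and lower for 98 (0.711%). Of the 91 ventral genes none was called between middle and ends, and 2 were higher in the anterior part, with a median log2 fold change of 0.74, against 0.22 over all genes. With the section total 8 of the 91 were higher in the anterior part and 0 in the posterior part, where 714 (5.18%) and 177 (1.28%) of all genes were called. Of the 162 interior genes 1 was called for the middle and 3 (1.85%) for the ends, and 6 were higher in the anterior part (3.70%), with a median of 0.14. Of the larger lists 5 of 1127 ventral genes were called for the middle and 4 for the ends, against 30 (2.62%) and 4 of 1145 interior genes. In the anterior part 13 of the ventral genes were higher and in the posterior part 12, against 32 (2.79%) and 2 of the interior genes. With the section total these counts were 44 and 6 for the ventral genes and 62 and 8 for the interior genes. The near balance of the ventral genes was therefore not kept. Of the 162 genes 10 were then called for the anterior part and 1 for the posterior part. Between middle and ends that fit called 21 and 7 of the ventral genes and 35 and 18 of the interior genes. Of all genes it called 242 and 296. None of the 4 named identifiers was called on these axes, the smallest adjusted p being 0.127 for DjGI011591_001, at 1.45 ± 0.45 (SE) for sides over middle by edgeR.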

How the data were processed

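Polyadenylated RNA of tissue sections was captured with Direct-TRI and made into Lasy-Seq version 1.1 libraries, per the labels' protocols. The submitters' processing notes list Salmon without a version, BWA 0.7.17-r1188, fastp 0.21.0 and bcl2fastq 2.20.0, with no role for any. The reference used is not given in the sources used here. The authors deposited estimated counts per row with no scaling. Along the dorsal-ventral axis, 130 of 715848 values (0.0182%) were not whole, with a tolerance of 0, and they were rounded. Along the anterior-posterior axis, 7 columns could not be tied to 1 section and were left out. They are numbered 1 to 7, the foremost by number, so the anterior part lacks them.

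Sections under 20% of the median total (2325710 counts) were dropped. Genes with at least 5 counts in at least 3 kept sections were tested with edgeR 4.0.16 (R 4.3.3), TMM factors and its quasi-likelihood F-test, with Benjamini-Hochberg adjusted p under 0.05 over all of them. The standard error was read from the F statistic. The fit was repeated with counts thinned to 648215 per section (seed 1) and with the log2 section total as a covariate, and the code was tested on simulated data. CPM are TMM-scaled over the 16 sections unless said otherwise, and are not per transcript length. The right-left and anterior-posterior series were divided into 3 parts by section number and tested alike. DESeq2 1.42.0, limma 3.58.1, other filters and leaving out sections were alternatives.

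Named identifiers are, per direction, the 2 of largest absolute log2 fold change that meet the conditions in the text. For the slope the same rule gave none, since no gene was called. Lists of cell type markers could not be matched, because the tables hold no names. The groups, members and lists were chosen with earlier results of these data known, and DjGI011591_001 and DjGI019005_001 had also stood out in those. Sections of 1 series stand in for replicates, so p-values measure the spread between sections, which may be technical, and not between animals. Neighbouring sections are not independent, and library numbers follow section order. Intervals and floors cover counting error only.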

Additional observations from a re-analysis of the deposited data

Results flagged for a closer look

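Of 24 groups of section values examined for a lone high or low section, 4 had one, where chance gives about 1 in 20. Ventral section 23 had a total of 5637000 counts (rounded), far above the other ventral sections. Ventral section 26 had 47.3% of its counts in the genes called higher ventrally, and it alone of the ventral sections had counts of DjGI006409_001, at 2.08 CPM. Interior section 15 had 3.14 CPM of DjGI011591_001, the highest interior level of that identifier.

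Ventral end sections 27 and 28, which no fit used, had higher summed shares than the 8 kept interior sections. The genes called higher ventrally took 35.5% of the counts of section 27 and 46.0% of those of section 28, and the 91 of them called in all 3 fits took 1.96% and 0.641%. Interior section 18, dropped for its low total, had 44.9% and 0.301%. In section 28, 49 of the 91 genes were below their lowest interior level and 21 above their highest. The part of depth in these shares was not tested.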

How the results depend on the processing

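No paired analysis was possible because sections 19 to 26 and 10 to 18 share no number, and equal numbers in the other series mark other axes. Counts of calls are given as total, higher ventrally and higher in the interior, against 2522, 1254 and 1268. They were 285, 113 and 172 with the section total, 1, 0 and 1 with interior section 10 alone, and 38, 0 and 38 with interior sections 10 and 14 (chosen after seeing the data). With section 18 kept they were 849, 331 and 518, and, with the section total also in the model (chosen after seeing the data), 562, 385 and 177. Odd-numbered sections gave 805, 363 and 442 and even-numbered ones 199, 13 and 186, with fewer sections in each. Library totals gave 1937 and 736, limma-trend 744 and 2385, and DESeq2 2182 higher ventrally, with no adjusted p for 1729 genes. Leaving out 1 section gave 1805 to 2939 calls, 952 to 1377 higher ventrally and 853 to 1587 higher in the interior. Other filters, borders, size factors and thinning stayed within 1.5 times of each count.

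Genes called in all 3 fits, 91 ventral and 162 interior, ranged over 0 to 154 and 1 to 304 when 1 section was left out, and library totals gave 193 ventral ones. The slope count of 0 became 23 with the section total and 20 with limma-trend, and ranged over 0 to 112 when 1 section was left out. With the section total, calls along the anterior-posterior axis were 538 in place of 219 for the middle and 891 in place of 336 for the ends against each other. The difference in detected genes, -1427, was -348 with 2 or more counts and reversed to 314.75 at 64822 counts per section, and ranged over -1698 to -1183 when 1 section was left out. The difference in the share of the 10 most abundant genes, 2.75 percentage points, reversed to -1.88 for the 100 most abundant (exact permutation p = 0.0814) and ranged over 2.03 to 3.73 when 1 section was left out. The cause of these changes was not tested. DjGI011591_001 lost its call in 3 of 34 alternatives, DjGI017191_001 in 2 of 34, and DjGI019005_001 and DjGI006409_001 in 1 of 32 each, with the sign kept in all of them. The last pair was not tested with interior section 10 alone or with interior sections 10 and 14. With sections 10 and 14 both ventral identifiers lost their call, so the numbers of losses of the pairs cannot be compared. Depth limits the ventral sections most, where 130 interior genes without a ventral count could still be present at low levels.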
